A study of Mus musculus with 4 samples.

Results

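Zfp promoters are the promoter regions of mouse genes named Zfp followed by a number, a series of zinc finger genes. They were chosen from the regions of the deposited count table whose centre lay within 1000 bases of the nearest start site and whose nearest gene has such a name. This gave 334 regions of 325 genes, out of 11533 promoter regions of 11163 genes and 29121 regions in all. Of the 325 genes, 319 are annotated as protein-coding, 3 as pseudogenes and 3 as non-coding RNA genes.

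Accessible chromatin was measured by ATAC-seq, in which a transposase cuts and tags open DNA, in hippocampal neurospheres of C57BL/6 mice at P0. Neurospheres are floating clusters of neural progenitor cells, here grown for 7 days with FGF-2 and EGF at 20 ng/ml each. The 2 Fgf13cko cultures had the genotype hGFAPCre+, Fgf13 flox/y, and the 2 control cultures hGFAPCre+, Fgf13+/y, so that every culture was male and carried the Cre transgene. The hGFAP promoter drives Cre in radial glia and the progenitors that come from them, and cells in which Cre did not act would keep Fgf13. Fgf13 is an X-linked gene for an intracellular protein of the FGF family. Whether each group's 2 cultures were taken from different mice is not labelled, so the p-values reflect spread among these 4 libraries that may be technical.

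Zfp genes encode proteins with finger-shaped folds that each hold a zinc ion and contact DNA or RNA. Most belong to the Cys2His2 class, and many of those also carry a KRAB domain, which recruits the co-repressor Trim28 and, through it, the histone methyltransferase Setdb1 and heterochromatin proteins. KRAB zinc finger genes arose by tandem duplication, lie in clusters and are best known for silencing transposable elements. A smaller number of Zfp genes act in other ways, such as the CCCH protein Zfp36, which binds AU-rich messenger RNAs and promotes their decay.

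The promoter sequences of 6 members show the kinds of promoter among those that passed the test described below: 5 that rose, with and without the motifs searched for, and Zfp36, which fell. Each is the RefSeq sequence on GRCm38.p6 of 250 bases before to 50 bases after the start site, 300 bases in all, written 5′ to 3′ on the gene's strand. Capitals mark CCAAT or its other strand ATTGG, the core of NF-Y sites, and GGGCGG or its other strand CCGCCC, the core of SP sites. A match is a description of the letters in this window.
Zfp811, chr17:32809882-32810181, minus strand: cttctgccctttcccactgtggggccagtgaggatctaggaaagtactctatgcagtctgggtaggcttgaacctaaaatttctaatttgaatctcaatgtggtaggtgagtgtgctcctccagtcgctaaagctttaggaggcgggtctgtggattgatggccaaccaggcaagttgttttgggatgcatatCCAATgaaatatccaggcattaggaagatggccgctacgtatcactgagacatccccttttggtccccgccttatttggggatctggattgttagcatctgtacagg
Zfp941, chr7:140822129-140822428, minus strand: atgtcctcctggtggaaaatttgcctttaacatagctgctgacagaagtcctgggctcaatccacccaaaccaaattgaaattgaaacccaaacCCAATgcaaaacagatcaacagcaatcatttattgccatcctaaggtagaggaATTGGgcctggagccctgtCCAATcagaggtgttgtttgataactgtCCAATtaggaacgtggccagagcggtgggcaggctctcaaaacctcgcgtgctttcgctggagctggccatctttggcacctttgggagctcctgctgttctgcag
Zfp773, chr7:7136706-7137005, minus strand: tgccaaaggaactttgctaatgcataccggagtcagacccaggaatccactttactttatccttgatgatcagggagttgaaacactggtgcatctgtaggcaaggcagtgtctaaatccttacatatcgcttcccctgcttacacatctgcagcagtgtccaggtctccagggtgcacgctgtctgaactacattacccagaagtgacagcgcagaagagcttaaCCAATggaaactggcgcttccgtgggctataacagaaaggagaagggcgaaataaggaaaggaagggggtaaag
Zfp763, chr17:33033332-33033631, minus strand: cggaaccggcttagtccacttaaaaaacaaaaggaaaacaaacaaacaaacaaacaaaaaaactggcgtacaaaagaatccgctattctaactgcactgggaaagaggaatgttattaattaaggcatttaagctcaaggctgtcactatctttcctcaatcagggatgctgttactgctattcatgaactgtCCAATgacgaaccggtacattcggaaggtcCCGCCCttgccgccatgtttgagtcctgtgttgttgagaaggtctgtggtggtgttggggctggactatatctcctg
Zfp948, chr17:21566728-21567027, plus strand: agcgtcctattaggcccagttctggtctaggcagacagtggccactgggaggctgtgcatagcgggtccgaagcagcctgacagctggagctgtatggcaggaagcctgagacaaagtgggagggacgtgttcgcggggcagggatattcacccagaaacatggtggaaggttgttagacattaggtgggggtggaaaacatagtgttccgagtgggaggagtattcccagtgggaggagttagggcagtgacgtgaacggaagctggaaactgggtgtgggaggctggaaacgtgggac
Zfp36, chr7:28379179-28379478, minus strand: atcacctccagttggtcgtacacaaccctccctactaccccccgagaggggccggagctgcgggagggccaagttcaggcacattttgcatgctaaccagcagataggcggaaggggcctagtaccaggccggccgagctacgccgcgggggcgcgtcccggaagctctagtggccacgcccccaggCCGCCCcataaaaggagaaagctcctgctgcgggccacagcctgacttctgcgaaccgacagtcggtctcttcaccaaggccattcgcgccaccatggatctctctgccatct

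All 325 genes were found in the RefSeq gene table by gene ID, and 263 of them had a promoter sequence, as did 8127 other protein-coding genes with a promoter region. Zfp promoters were poorer in G and C: the median GC content was 55.0% over the 263 Zfp promoters and 62.3% over the others, and the median ratio of observed to expected CpG was 0.647 for Zfp promoters and 0.789 for the others. GGGCGG or CCGCCC was present in 43.7% of the Zfp promoters and 70.9% of the others. CCAAT or ATTGG was present in 47.9% of the Zfp promoters and 39.4% of the others. The YY1 core AAGATGGC, on either strand, occurred in 6.46% of the Zfp promoters and 4.69% of the others, and is found in lower case in the sequences of Zfp811 and Zfp941 above. Of the other motifs searched on both strands, CCGGAAGT (ETS) was in 10.3% of the Zfp promoters and 8.40% of the others, ACTACAA (ZNF143) in 6.46% and 4.50%, TATAAA in 5.70% and 6.03%, and CACGTG (E-box) in 6.46% and 10.5%. GCATGCGC (NRF1) was in 5.70% of the Zfp promoters and 5.93% of the others, TGACGTCA (CRE) in 3.80% and 3.59%, TGANTCA (AP-1) in 3.04% and 4.06%, and the ZBTB33 motif in 0.380% and 1.18%. Some of these motifs can overlap in their letters, and a promoter counts once for each.

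The promoter regions held 1.43 and 1.34 M tags in Fgf13cko 1 and 2, against 1.59 and 1.89 M in control 1 and 2, and the Zfp share of these tags was 2.69% and 2.78% in Fgf13cko, against 2.57% and 2.60% in the controls. The median Zfp promoter held 93.0 and 94.5 tags in Fgf13cko, against 95.0 and 119 tags in the controls. Mitochondrial tags made up 9.54% and 9.19% of all tags in Fgf13cko, against 23.4% and 27.0% in the controls. Across promoters, the chi-square statistic per promoter was 4.22 between the Fgf13cko libraries and 1.64 between the controls, so the Fgf13cko libraries differed more from each other. Fgf13, on chromosome X, has regions at 2 of its start sites. The one centred 132 bases from a start site held 126 and 81.7 normalised tags in Fgf13cko, against 103 and 100.4 in the controls, and the one centred 170 bases from another held 87.6 and 67.3 in Fgf13cko, against 88.2 and 87.2 in the controls. The labels do not say which part of the gene is floxed, so these regions do not check the deletion. All 7 neural progenitor markers had a promoter region, as did 3 of 5 neuron, 2 of 4 oligodendrocyte, 2 of 4 astrocyte, 1 of 4 microglia and 1 of 3 endothelium markers, and 0 of 3 fibroblast and 0 of 3 blood markers. Among the markers, Fabp7 and Nes of progenitors (log2 fold change 0.81, adjusted p = 0.0208, and 0.81, adjusted p = 0.0434) and Map2 and Syt1 of neurons (0.78, adjusted p = 0.0418, and 0.94, adjusted p = 0.0149) rose in Fgf13cko, and none of these passed without control 1 or without control 2. Over all tested promoters 2.03% rose. The other markers did not pass with all 4 libraries. Sox9 (-0.26), Tubb3 (-0.06), S100b (-0.47) and P2ry12 (-0.88) were lower in Fgf13cko. Sox2, Pax6, Hes5, Vim and Kdr lay between 0.02 and 0.06, and Pdgfra (0.24), Aldh1l1 (0.46) and Olig2 (0.56) were higher. Summed over the list, the progenitor markers held 1975 and 1812 normalised tags in Fgf13cko, against 1574 and 1828 in the controls. The neuron markers held 500.3 and 576 in Fgf13cko, against 299 and 320 in the controls, with no region at Dcx or Rbfox3. The part of cell composition in the Zfp values was not tested. In such bulk samples, fewer open cells and less openness per cell cannot be told apart.

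The Zfp promoters held summed tag counts like those of other promoters, in narrower regions and with more enriched peaks. Normalised counts, which are tags divided by relative library size, had a median of 107 per tested Zfp promoter, with quartiles of 67.6 and 159, against a median of 109 and quartiles of 65.6 and 180.4 for the other protein-coding promoters. The median width of the counted regions was 914 bases for tested Zfp promoters and 1019 bases for the others. The tested members ranged between 14.8 and 666 normalised tags on average over the 4 libraries. The promoter with the most tags was Zfp687, with 871 and 649 normalised tags in Fgf13cko, against 515 and 631 in the controls. It was followed by Zfp869, Zfp78, Zfp788 and Zfp654, and none of these 5 passed the test. In the authors' peak lists, the median fold enrichment of the peak at a Zfp promoter was 6.70 and 6.27 in Fgf13cko, against 6.41 and 6.52 in the controls. For other protein-coding promoters it was 5.50 and 5.30 in Fgf13cko, against 5.52 and 5.72 in the controls.

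After a filter on low counts, 316 of the 325 members were tested together with 10801 other promoters. The 9 members left out were Zfp97, Zfp433, Zfp781, Zfp955a, Zfp955b, Zfp965, Zfp966, Zfp967 and Zfp973, of which 5 held 0 tags in every library although each peak list has a peak there. Where these had a promoter sequence, at least 95.5% of its stretches of 36 bases also occur in another promoter. Shared stretches were found in 42 members, and made up over 50% of the sequence in 12, of which 7 were tested. The values of such members are uncertain, since the counting could split or drop reads between copies. In 35 members the region also covered the start site of another gene.

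In Fgf13cko, 12 of the 316 tested Zfp promoters passed the edgeR test at an adjusted p under 0.05, and 9 rose and 3 fell. Over all 11117 tested promoters, 2.03% rose and 0.513% fell. Among the Zfp promoters these shares were 2.85% and 0.949%. Of the 9 that rose, 5 lie on chromosome 17 and 4 on chromosome 7, which hold 38 and 81 of the 316 tested members. On chromosome 7 the other promoters had a median log2 fold change of 0.21, above the Zfp median of 0.17 there. The shares of other promoters called on these chromosomes are not given here. Without control 1 or without control 2, none of the 12 passed in edgeR, and over all promoters the share called was 0% in each case, with an unadjusted p under 0.05 at 30 and 31 Zfp promoters (9.49% and 9.81%), against 7.43% and 7.21% of all promoters. With all 4 libraries, an unadjusted edgeR p under 0.05 was found at 21.2% of the Zfp promoters and 19.4% of all promoters. Without Fgf13cko 1 the test called 35 Zfp promoters, or 11.1%, against 10.5% of all promoters, and without Fgf13cko 2 it called 71, or 22.5%, against 24.7%. The called share of Zfp promoters was thus near the background in each of these fits. Of the 316 tested Zfp promoters, DESeq2 called 3, Zfp710, Zfp811 and Zfp948, all among the 12. Over all promoters with a DESeq2 adjusted p, it called 130 of 8530, or 1.52%. Some of the 316 had no adjusted p in DESeq2, so the 3 of 316 and this share have unlike bases.

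**Figure D1:**
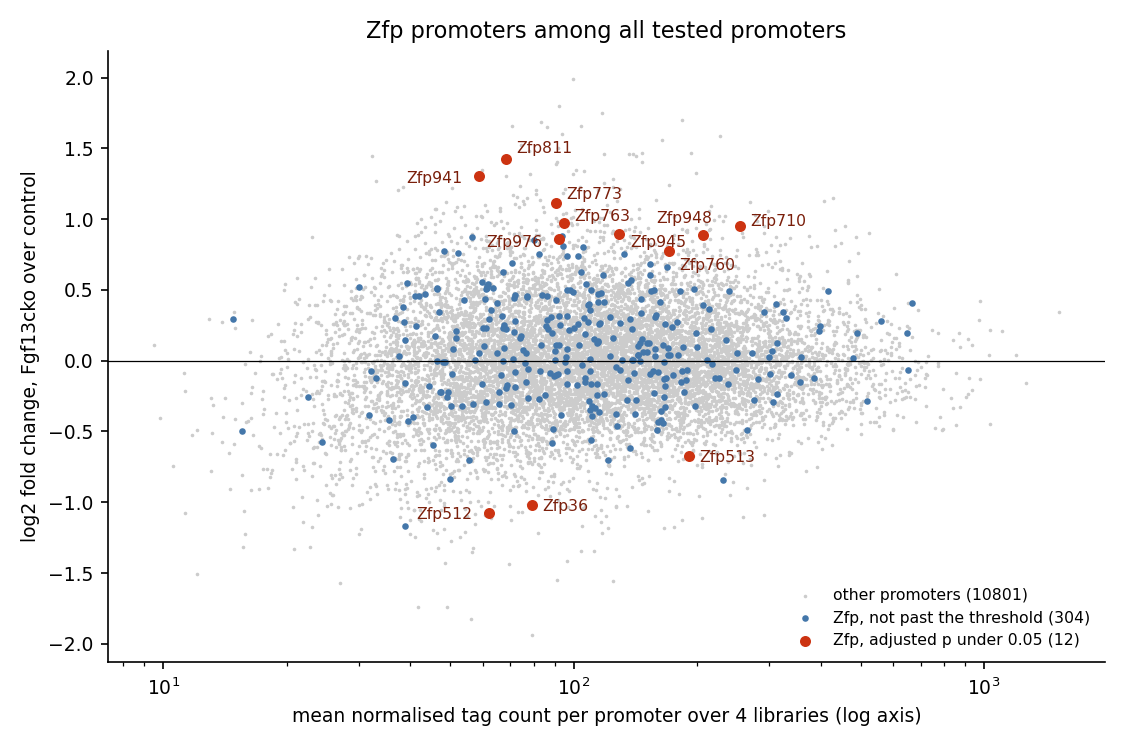
Log2 fold change of each tested promoter, Fgf13cko over control, against its mean normalised tag count over the 4 libraries on a log axis. Red points are the 12 Zfp promoters past the threshold, blue points the other 304 tested Zfp promoters and grey points the 10801 other promoters. The Zfp promoters lie within the cloud of other promoters, with 9 red points above 0 and 3 below.

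Zfp811 had the largest rise. Its region, chr17:32809255-32810305, spans the start site and part of the first intron, and held 116 and 84.4 normalised tags in Fgf13cko, against 38.0 and 35.95 in the controls. The log2 fold change was 1.43 (SE 0.25, adjusted p = 0.0131). Both Fgf13cko libraries lay above both controls. Selection by the test on these counts makes such a gap likely, here and at the other promoters that passed. Zfp763, at chr17:33032864-33033811 in the same cluster, held 128 and 124 normalised tags in Fgf13cko, against 50.2 and 76.5 in the controls (log2 fold change 0.97, SE 0.22, adjusted p = 0.0402). Other promoters within 2 Mb of either gene had a median of -0.10 on the log2 scale, so that both members differ in sign from the median around them.

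Zfp941, at chr7:140821444-140822296, was second. It held 83.9 and 83.2 normalised tags in Fgf13cko, against 42.4 and 25.6 in the controls (log2 fold change 1.30, SE 0.29, adjusted p = 0.0346). The controls differed from each other more than the Fgf13cko libraries did. The 49 other promoters within 2 Mb had a median of 0.47, in the same direction. Zfp773, at chr7:7136313-7137216, held 122 and 127 normalised tags in Fgf13cko, against 42.9 and 70.7 in the controls (log2 fold change 1.11, SE 0.24, adjusted p = 0.0313). The groups did not overlap.

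Zfp948 and Zfp760 lie in another cluster of chromosome 17. Zfp948, at chr17:21566090-21567263, held 249.6 and 285 normalised tags in Fgf13cko, against 143 and 146 in the controls (log2 fold change 0.89, SE 0.16, adjusted p = 0.0137). Zfp760, at chr17:21707226-21708181, held 214 and 218 in Fgf13cko, against 107 and 144 in the controls (log2 fold change 0.77, SE 0.18, adjusted p = 0.0402). Other promoters around these genes were also higher in Fgf13cko, with medians of 0.42 over 5 promoters within 2 Mb of Zfp948 and 0.38 over 7 within 2 Mb of Zfp760.

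The remaining 3 that rose lie outside the clusters described below. Zfp710, at chr7:80024271-80027118, held 381 and 289 normalised tags in Fgf13cko, against 154 and 192 in the controls (log2 fold change 0.95, adjusted p = 0.0170). Zfp945 held 167 and 169.9 in Fgf13cko, against 77.1 and 103 in the controls (log2 fold change 0.89, adjusted p = 0.0314). Zfp976 held 127 and 111 in Fgf13cko, against 71.7 and 59.1 in the controls (log2 fold change 0.86, adjusted p = 0.0470), and 27.2% of its promoter stretches occur in another promoter. In all 3 the Fgf13cko libraries lay above the controls. Of the 9 promoters that rose, 7 hold CCAAT or ATTGG and 3 hold GGGCGG or CCGCCC. These motifs were found in 47.9% and 43.7% of all 263 Zfp promoters with a sequence, and in 1 and 2 of the 3 that fell. Such counts are too few to set the called promoters apart.

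Zfp36, at chr7:28378992-28379595, held 42.2 and 61.8 normalised tags in Fgf13cko, against 112 and 100.01 in the controls (log2 fold change -1.02, SE 0.24, adjusted p = 0.0418). Both Fgf13cko libraries lay below both controls. Its CCCH relatives had lower means in Fgf13cko too but did not pass the test: Zfp36l1 averaged 88.8 ± 9.24 in Fgf13cko and 131 ± 2.08 in the controls (SD, n = 2 each, log2 fold change -0.56, edgeR adjusted p = 0.128), and Zfp36l2 had a log2 fold change of -0.15 (adjusted p = 0.637). Zfp512 and Zfp513 lie on chromosome 5, at chr5:31452011-31452729 and chr5:31201859-31202689. Zfp512 held 37.2 and 42.8 normalised tags in Fgf13cko, against 75.1 and 94.2 in the controls (log2 fold change -1.07, adjusted p = 0.0434). Zfp513, whose human counterpart has been linked to a retinal disease, held 141 and 153 in Fgf13cko, against 228 and 242 in the controls (log2 fold change -0.67, adjusted p = 0.0418). The other promoters within 2 Mb of both had a median of -0.37 on the log2 scale.

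**Figure D2:**
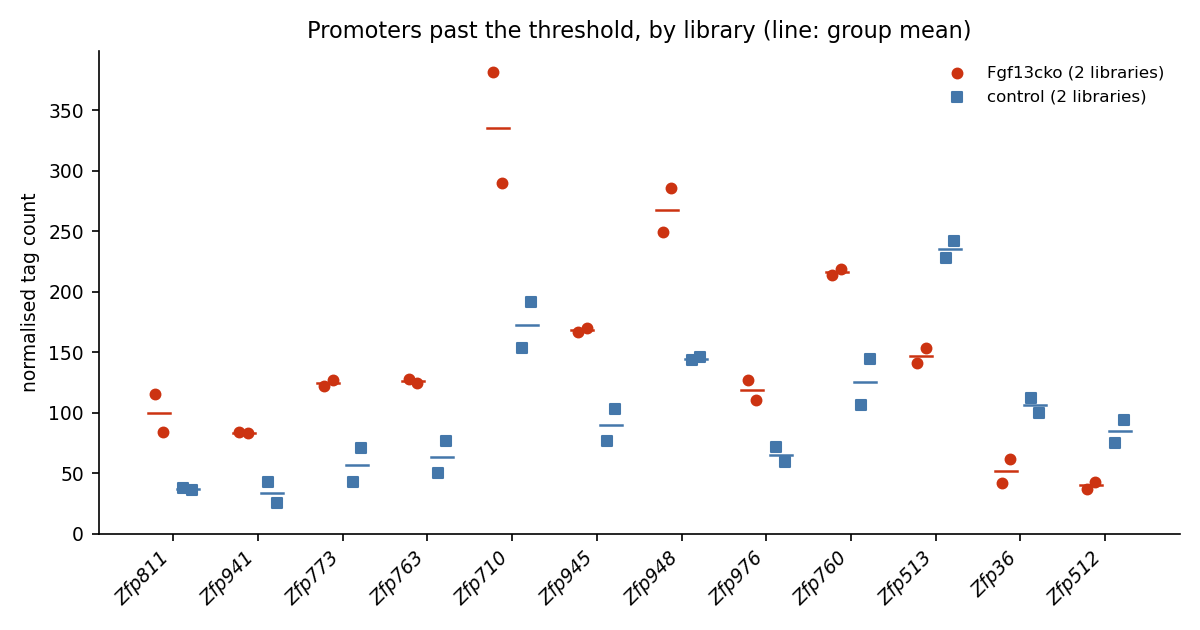
Normalised tag counts of the 12 Zfp promoters past the threshold, ordered by log2 fold change. For each gene the 2 Fgf13cko libraries (red circles) stand left of the 2 controls (blue squares), and lines mark group means. The groups do not overlap at any of the 12, which were picked by a test on these counts, so this adds no support. Counts run between 25.6 and 381 normalised tags.

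Across all 316 tested members, 189 had a higher and 127 a lower mean in Fgf13cko. The share that was higher was 59.8%, against 48.5% of the 10222 other protein-coding promoters. The median log2 fold change was 0.08 for Zfp promoters, with quartiles of -0.15 and 0.34, and -0.01 for the others, with quartiles of -0.24 and 0.23. The SD across promoters was 0.39 for Zfp and 0.38 for the others. In each of the 4 pairings of 1 Fgf13cko with 1 control library the Zfp median was above 0, between 0.06 and 0.11, against -0.01 to 0.00 for the others. Both Fgf13cko libraries lay above both controls at 114 members, or 36.1%, against 26.1% of all tested promoters, and below both at 62 members, or 19.6%, against 25.2%. The 4 pairings share libraries, and the SD of their Zfp medians was 0.024.

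Promoters of similar counts were compared by cutting the tested protein-coding promoters into 5 equal bins of mean normalised count. By bin from the lowest, the Zfp median log2 fold change was -0.01, 0.18, 0.14, 0.04 and 0.05, against -0.08, -0.00, 0.01, 0.01 and -0.01 for the others. The Zfp median was the higher in each bin, by the most in the second. By bin of GC content, the Zfp median was 0.25, 0.06, -0.00, -0.12 and -0.09, against 0.05, 0.02, -0.03, -0.03 and -0.04 for the others. In the bin with the least GC, at most 55.0%, 72.2% of 126 Zfp promoters were higher in Fgf13cko, against 55.7% of 1591 others. In the 2 bins with the most GC the Zfp median was below that of the others, over 18 and 29 Zfp promoters. GC content thus moves with the difference in both sets of promoters, and its part in the Zfp values was not tested.

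**Figure D3:**
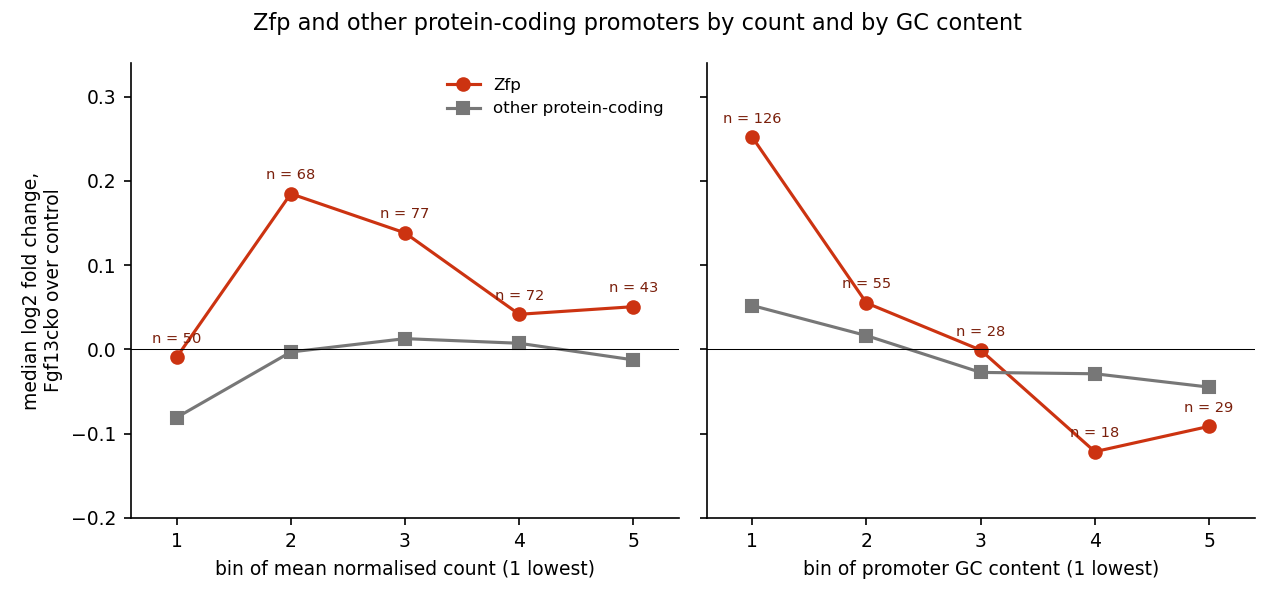
Median log2 fold change, Fgf13cko over control, of Zfp promoters (red, with their number) and other protein-coding promoters (grey) in 5 equal bins of mean normalised count (left) and of promoter GC content (right). The Zfp median lies above the others in all 5 bins of count, and runs between 0.25 at the lowest GC and -0.12 in the fourth bin of GC.

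Zfp genes are not spread evenly: 81 members lie on chromosome 7, 41 on chromosome 17, 34 on chromosome 13, and 21 each on chromosomes 8 and 2, with the rest on other chromosomes. On chromosome 17 the median log2 fold change was 0.31 over 38 tested Zfp promoters and 0.01 over 472 other promoters. On chromosome 13 it was 0.31 over 34 Zfp promoters and -0.01 over 400 others. On chromosome 7 it was 0.17 over 81 Zfp promoters and 0.21 over 722 others, so the Zfp median was the lower of the 2 there. On the other chromosomes 75 of 163 Zfp promoters (46.0%) were higher, with a median of -0.07 against -0.03 for other protein-coding promoters.

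With a cluster taken as at least 4 members with gaps of at most 200 kb, 133 members fell into 17 clusters on 8 chromosomes. Of the 129 tested members in clusters, 87 had a higher mean in Fgf13cko, with a median log2 fold change of 0.15, 5 that rose and 0 that fell. Outside clusters 102 of 187 were higher, with a median of 0.03, 4 that rose and 3 that fell. Over all tested promoters 2.03% rose and 0.513% fell, and these counts are too few to set clusters apart from other members. Promoters in clusters had a median GC content of 53.3%, against 58.0% for Zfp promoters outside clusters.

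The largest cluster lies on chromosome 13, with centres between chr13:67060770-67814134, and holds 22 members between Zfp712 and Zfp273. In this cluster 21 of 22 promoters had a higher mean in Fgf13cko, and at 16, or 72.7%, both Fgf13cko libraries lay above both controls, against 26.1% of all tested promoters. With any 1 library left out, between 19 and 21 were higher. Summed over the cluster, Fgf13cko held 2433 and 2401 normalised tags, against 1884 and 1838 in the controls, a ratio of 1.30. The median log2 fold change was 0.41, between -0.09 for Zfp874b and 0.75 for Zfp458, and lay between 0.35 and 0.42 when any 1 library was left out. Zfp458 held 128 and 78.6 normalised tags in Fgf13cko, against 59.5 and 63.2 in the controls (adjusted p = 0.128). No single promoter of this cluster passed with all 4 libraries in the main edgeR test, DESeq2 or limma-voom. An unadjusted p under 0.05 in the main edgeR test was found at 9, or 40.9%, against 19.4% of all tested promoters. Under some of the edgeR alternatives described at the end, some of its promoters passed. The 9 other promoters within 2 Mb had a median of 0.15.

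**Figure D4:**
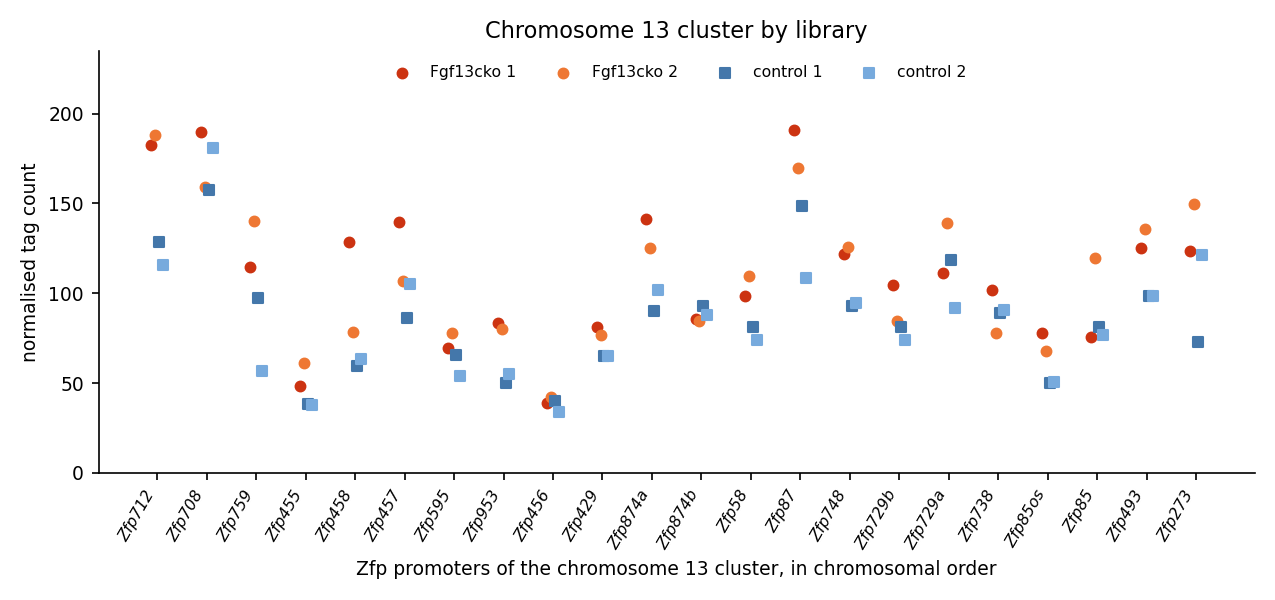
Normalised tag counts of the 22 Zfp promoters of the chromosome 13 cluster in each library, in chromosomal order, with Fgf13cko as red and orange circles left of the controls as blue squares. At 16 of the 22 both circles lie above both squares, against 26.1% of all tested promoters, although none passed the test alone.

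On chromosome 17, a cluster of 10 members with centres between chr17:21383810-21962451 had a higher mean in Fgf13cko at all 10. The sums were 1250.2 and 1409 normalised tags in Fgf13cko, against 889 and 965 in the controls, a ratio of 1.43. The median log2 fold change was 0.48, between 0.03 for Zfp51 and 0.89 for Zfp948, and lay between 0.37 and 0.65 with 1 library left out, when 9 or 10 were higher. The 12 other promoters within 2 Mb had a median of 0.40, close to that of the Zfp promoters among them. A second cluster on that chromosome, with centres between chr17:32787942-33394582, holds 12 members, of which 10 were tested. Of these, 6 were higher in Fgf13cko, with a median of 0.27, and the range ran between -0.31 for Zfp563 and 1.43 for Zfp811. With no filter on low counts all 12 were fitted and the median was 0.42. This change rests on the members added, which are among those left out of the test for low counts, so it is uncertain. The 67 other promoters within 2 Mb had a median of -0.10.

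Clusters of chromosome 7 differed among themselves. The one at chr7:12818746-12978086 had 4 of 5 members higher in Fgf13cko and a median of 0.49, with Zfp329 the highest at 0.69 (adjusted p = 0.114). The one at chr7:24082301-24507072 had 8 of 10 higher and a median of 0.26, with Zfp61 the highest at 0.81 (adjusted p = 0.0544), while the 23 other promoters within 2 Mb had a median of -0.16. Without Fgf13cko 2 the median of this cluster was 0.04 and 6 of 10 were higher. The one at chr7:29768542-30169806, with 14 members, had 10 higher and a median of 0.13, and its summed counts overlapped between groups. This median was -0.10 without Fgf13cko 2 and 0.35 without Fgf13cko 1. The other 5 chromosome 7 clusters had medians between -0.03 and 0.19, and these moved with single libraries. The one that holds Zfp773 had 0.19 with all libraries, 0.12 without control 1, 0.33 without Fgf13cko 2 and 0.38 without control 2. The one that holds Zfp689 and Zfp768 had 0.17 with all libraries, 0.06 without Fgf13cko 1 and 0.36 without Fgf13cko 2. The other 3, with medians of -0.03, -0.02 and 0.03, each took either sign as single libraries were left out, between -0.16 and 0.13. The cluster on chromosome 6 had a median of -0.17, which ran between -0.12 without control 1 and 0.03 without control 2. The chromosome 9 cluster had 0.07, or -0.05 without control 1 and 0.29 without control 2. The 2 tested members of the chromosome 10 cluster had a median of 0.04, or -0.09 without Fgf13cko 1, 0.15 without Fgf13cko 2 and -0.07 over 3 members with no filter. The second cluster of chromosome 8 had 0.10, or 0.0036 without control 1 and 0.20 without control 2.

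Some clusters lay on the other side. At chr11:50827591-51059370, 0 of 6 members had a higher mean in Fgf13cko, the sums were 457 and 521 normalised tags in Fgf13cko, against 626 and 629 in the controls, and the median was -0.41. Its lowest member, Zfp879, held 8.34 and 39.3 in Fgf13cko, against 64.9 and 42.6 in the controls, so its log2 fold change of -1.17 rests largely on Fgf13cko 1 (SE 0.58, adjusted p = 0.324). The median was -0.25 without Fgf13cko 1 and -0.19 without control 2. At chr8:69625425-69774913, 0 of 5 were higher and the median was -0.28, or -0.08 without Fgf13cko 1. No member of either cluster passed with all 4 libraries in the main edgeR test, DESeq2 or limma-voom. In the main edgeR test 1 of the first and 0 of the second had an unadjusted p under 0.05, against 19.4% of all tested promoters. Some members of each passed under edgeR alternatives described at the end. With 1 library left out, up to 2 of the first and up to 1 of the second were higher in Fgf13cko.

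**Figure D5:**
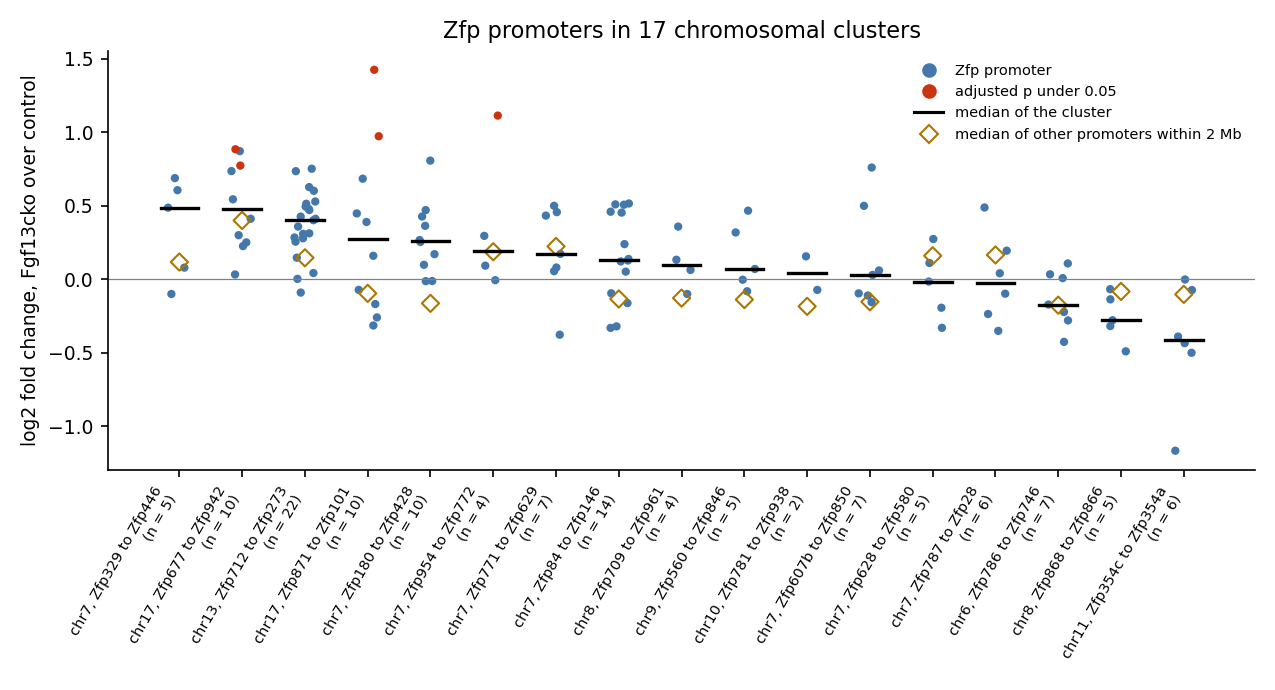
Log2 fold change, Fgf13cko over control, of each tested Zfp promoter in the 17 clusters, ordered by cluster median (black line) and named by chromosome and outermost members. Red points passed the threshold, and diamonds mark the median of the other promoters within 2 Mb. The chromosome 13 cluster stands at 0.41 with its neighbours at 0.15, and the first chromosome 17 cluster at 0.48 with its neighbours at 0.40.

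Among 194 members with at least 20 other tested promoters within 2 Mb, 111 had a log2 fold change above the median of these neighbours, and the median difference was 0.04. The clusters with the highest medians (0.49, 0.48 and 0.41, on chromosomes 7, 17 and 13) had 10, 12 and 9 such neighbours. Their members are thus not among the 194, nor are those of the cluster with Zfp773 (0.19) and of the chromosome 6 cluster (-0.17). The value of 0.04 does not describe all tested members.

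Of 13 genes with known roles in neural development, 10 had a promoter region. None passed in edgeR, DESeq2 or limma-voom, and 2 of 10 had an unadjusted edgeR p under 0.05, against 19.4% of all tested promoters, with 4 of 10 higher in Fgf13cko and a median log2 fold change of -0.11. Zfp521, which promotes neural differentiation of mouse embryonic stem cells, had the largest difference and averaged 92.2 ± 12.5 normalised tags in Fgf13cko and 151 ± 4.93 in the controls (SD, n = 2 each, log2 fold change -0.70, edgeR adjusted p = 0.0681). Zfp219 and Zfp804a had positive values of 0.34 and 0.23. Zfp110 and Zfp369 encode proteins that bind the p75 neurotrophin receptor. Zfp110 averaged 142 ± 4.52 in Fgf13cko and 93.6 ± 6.79 in the controls (SD, n = 2 each, log2 fold change 0.61, edgeR adjusted p = 0.0938), and Zfp369 had a log2 fold change of 0.30 (adjusted p = 0.273).

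Of 8 genes for silencing, imprinting and pluripotency, 7 had a region, with a median log2 fold change of -0.18. None passed in edgeR, DESeq2 or limma-voom, and 2 of 7 had an unadjusted edgeR p under 0.05, against 19.4% of all tested promoters. Zfp57, which keeps methylation at imprinted genes, held 69.5 and 51.4 normalised tags in Fgf13cko, against 43.9 and 28.1 in the controls (log2 fold change 0.77, adjusted p = 0.210). Zfp445, which shares that role, had a log2 fold change of -0.60 (adjusted p = 0.359), and Zfp809, which silences retroviral DNA in mouse embryonic stem cells, one of -0.18 (adjusted p = 0.576). The general promoter factor Zfp143 held 524 and 522 in Fgf13cko, against 451 and 461 in the controls (log2 fold change 0.20, adjusted p = 0.462).

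Of 21 partner genes of the KRAB pathway, 18 were tested, 1 rose and 1 fell, against 2.03% and 0.513% of all tested promoters. The median log2 fold change was -0.07, and 7 of 18 were higher in Fgf13cko. An unadjusted edgeR p under 0.05 was found at 5 of 18, against 19.4% of all tested promoters. Uhrf1, which binds hemimethylated DNA for maintenance methylation, averaged 181 ± 1.73 in Fgf13cko and 99.2 ± 5.82 in the controls (SD, n = 2 each, log2 fold change 0.86, edgeR adjusted p = 0.0215). Trim24, a relative of Trim28, averaged 264 ± 22.8 in Fgf13cko and 415 ± 0.637 in the controls (SD, n = 2 each, log2 fold change -0.65, edgeR adjusted p = 0.0364). Trim28 had a log2 fold change of 0.17 (adjusted p = 0.607) and Setdb1 one of 0.18 (adjusted p = 0.832). Neither call held without control 1 or without control 2, where no promoter passed.

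Other zinc finger series gave 0 calls in edgeR, DESeq2 and limma-voom, and an unadjusted edgeR p under 0.05 at 6 Zbtb, 2 Zscan, 4 Klf, 2 Zkscan and 0 Zic promoters, against 19.4% of all tested promoters. The median log2 fold change was -0.18 over 28 Zbtb promoters, with 7 higher in Fgf13cko, -0.25 over 7 Zscan promoters, with 1 higher, -0.09 over 13 Klf promoters, 0.03 over 9 Zkscan promoters and 0.04 over 2 Zic promoters. The Zfp median of 0.08 was above each of these. On chromosomes other than 7, 13 and 17 it was -0.07 over 163 promoters, below the Zkscan and Zic medians over all chromosomes.

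Regions over 1000 bases from the start site with a Zfp gene as nearest gene gave a second readout. There were 195 such regions, of which 194, near 99 genes, were tested. They lay at a median of 36.4 kb from the start site, and 134 were intergenic. In Fgf13cko, 10 rose and 3 fell, whereas 9.58% of all tested distal regions rose and 2.29% fell. The median log2 fold change was 0.10 for these regions and 0.09 for other distal regions, and the called shares near Zfp genes were 5.15% and 1.55%. With 1 library left out, the counts below are out of 194 regions. As a share of these, each was lower than the percentage of all distal regions beside it. Without control 1 the test called 3 of these regions (those named below near Zfp462, Zfp664 and Zfp703), against 3.02% of all distal regions, and without control 2 it called 2 (near Zfp664 and Zfp703), against 1.92%. Without Fgf13cko 1 it called 36, against 28.3%, and without Fgf13cko 2 it called 65, against 40.7%.

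The largest distal rise lay 60.3 kb from the start site of Zfp664, at chr5:124922498-124923538, with 323 and 253 normalised tags in Fgf13cko, against 84.8 and 100.4 in the controls (log2 fold change 1.63, adjusted p = 0.00439). A region 311 kb from Zfp462 held 154 and 143 in Fgf13cko, against 66.0 and 48.5 in the controls (log2 fold change 1.38, adjusted p = 0.00933). Near Zfp536, which holds back neuronal differentiation, 2 regions rose (log2 fold change 1.22 and 0.98). A region near Zfp41 that lies in an LTR element, RLTR14-int, had a log2 fold change of 1.14 (adjusted p = 0.0175). The steepest fall lay 15.7 kb from Zfp703, with 49.6 and 41.4 in Fgf13cko, against 152 and 143 in the controls (log2 fold change -1.70, adjusted p = 0.00439). The groups did not overlap at these regions, which were picked by the test on these same counts. The promoters of Zfp664, Zfp462, Zfp536, Zfp41 and Zfp703 did not pass the test and had log2 fold changes between -0.10 and 0.24.

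The count table keeps regions with a peak in every library, so all RefSeq Zfp genes, members included, were looked up in the peak lists. RefSeq names 416 Zfp genes, of which 336 have a start site in the table used. A peak covered the start site of 293 and 289 of them in Fgf13cko 1 and 2, against 281 and 284 in control 1 and 2. At 274 there was a peak in all 4 libraries and at 40 in none. At 4 (Zfp239, Zfp300, Zfp768 and Zfp804b, named after their patterns were seen) there was a peak in both Fgf13cko and in no control, or 1.19%, against 1.46% of the 27025 genes in that table. The reverse was found at 0, against 0.244% of all genes. Of the 4, Zfp239, Zfp768 and Zfp804b are members. Every library had a peak at their promoter regions, but in the controls it did not cover the start site. The pattern is thus not a gain of the promoter region, and Zfp768 had a lower mean in Fgf13cko (log2 fold change -0.38). With only peaks of a −log10 q of at least 2, the first number was 6, or 1.79%, against 1.41% of all genes, and with peaks within 1 kb counted it was 0, against 1.72%. Among genes with no peak at the start site in any library were Zfp42, a marker of pluripotent cells, Zfp488, a gene of the oligodendrocyte lineage, and Zfp503.

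At the edge of the rule, the regions farthest from a start site among the members belonged to Zfp608 (837 bases), Zfp423 (788) and Zfp93 (718), with log2 fold changes of -0.18, -0.32 and 0.36. The nearest regions outside belonged to Zfp827 (1036 bases), Zfp423 (1064) and Zfp516 (1232), with -0.08, 0.13 and 0.12.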

How the data were processed

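Chromatin accessibility was measured by ATAC-seq in 4 libraries, 2 Fgf13cko and 2 control, grouped by their titles. Per the file headers, the authors' table holds estimated counts: raw tags that HOMER assigned to merged peaks on mm10 without scaling. In the authors' peak lists, called per sample, each peak has a score, a fold enrichment (a ratio) and the −log10 of its p and q, all deposited values, used here to describe peaks or filter them. Bowtie2, MACS2, Picard, HOMER and DESeq2 appear in the submitters' processing notes, without role. Their versions, the treatment of duplicates and any read shift for the transposase are not stated there.

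Tags were summed per gene over regions within 1000 bases of the nearest start site and rounded to whole numbers. All 11163 promoters, and separately all 29121 regions, were fitted in edgeR 4.0.16 under R 4.3.3 (TMM, filterByExpr, robust glmQLFit, two-sided glmQLFTest, Benjamini-Hochberg at 0.05, no covariates). The mitochondrial regions entered the region fit only and are in no count of regions called. The biological coefficient of variation was 0.127 for promoters. Header totals were 16.8 and 13.1 M tags in Fgf13cko, against 24.9 and 26.0 M in the controls. The script was tested on simulated data. Named genes are those past the threshold, the highest and lowest of each cluster, the 5 with the most tags and members listed by role. The distal regions named and the genes beside the rule's edge were chosen after their values were seen. The members and lists were chosen with earlier results of these data known. Alternatives used other scalings, tests, windows and left-out libraries, DESeq2 1.42.0 and limma 3.58.1 among them. KRAB domains were not assigned, as no protein sequences were used.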

Additional observations from a re-analysis of the deposited data

How the results depend on the processing

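All 12 Zfp promoters past the threshold kept their direction under every alternative that tested them, which was all but 1 of them with start sites within 500 bases. With that window 8 passed, with limma-voom 11 of the 12, and with RLE factors, library size, a loess offset or no filter all 12. Of 72 named promoters, 11 took the other sign under some alternative. None of these 11 passed the main test or the test in which its sign differed, their main log2 fold changes were at most 0.23 in size, and up to 8 changed sign with any 1 library left out, 2 with the 500-base window and 1 with the replicate block. DESeq2 gave an adjusted p for 59 of the 72, and the 500-base window held 69. Beside 283 by the main test, all promoters past the threshold numbered 130 with DESeq2 and 438 with a loess offset. DESeq2 called 3 Zfp promoters and 5 distal Zfp regions, and the loess offset 20 distal Zfp regions. The shares of all distal regions called with DESeq2, the loess offset, library size or a replicate block are not given here. The distal Zfp counts under these settings thus have no background beside them and say nothing particular about Zfp regions. Scaling by library size alone, which includes the mitochondrial tags, called 116 distal Zfp regions and moved the median log2 fold change to 1.07 for these and 1.06 for other distal regions, so directions there are relative to the TMM scaling. Leaving out 1 library gave 0 to 71 Zfp promoters, 0 to 2747 promoters in all (826 and 802 at an unadjusted p under 0.05 without control 1 and 2) and 2 to 65 distal Zfp regions, and a median log2 fold change of the tested Zfp promoters between 0.0725 and 0.111, the highest without control 2. With 1 library left out, the lone sample is assumed to vary like the others.

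Same-numbered libraries did not deviate together (r = -0.148 over 11031 promoters), so the numbers are not taken as pairs. With the replicate number as a block, 16 Zfp promoters, 370 promoters in all and 21 distal Zfp regions passed. With crossed numbers, an alternative chosen after seeing the data, 29, 783 and 22 passed. Both distal counts again lack the share of all distal regions.

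At about 100 tags per promoter and 2 libraries a group, small differences cannot be told from the spread. Intervals and p-values cover these samples only.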
